A study of Mus musculus with 6 samples.

Results

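The 10 genes described here encode the heavy chains H2-K1, H2-D1, H2-T22, H2-T23 and H2-Q4 of major histocompatibility complex (MHC) class I, the light chain B2m, the peptide transporter subunits Tap1 and Tap2, the loading chaperone Tapbp and the immunoproteasome subunit Psmb8. They were found by gene name among the 30077 genes of the deposited table, each as a single row, and 9 of the 10 passed the filter on low values that left 11255 genes for testing. RNA was sequenced from wild-type bEnd.3 cells, a transformed mouse brain endothelial line. The mitochondria group (3 libraries) was given mitochondria taken from MLO-Y4, an osteocyte-like mouse line, in 100 µl of culture medium. The control group (3 libraries) received the same amount of medium without mitochondria, and both groups were collected after 24 h. Each group is 1 cell line, and no label tells whether its 3 libraries were separate cultures. The p-values therefore reflect the spread among these libraries, which could be purely technical. The strain of the cells is not given in the labels, while the build used, GRCm38, is that of C57BL/6J.

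MHC class I displays peptides from inside the cell to CD8 T cells and natural killer cells. The proteasome cuts proteins into peptides, Tap1 and Tap2 together pump these into the endoplasmic reticulum, and tapasin, the product of Tapbp, holds the empty heavy chain and B2m at the transporter until a peptide binds. Endothelial cells express class I at rest, and interferons raise most of these genes through IRF factors and the co-activator Nlrc5. H2-K1 and H2-D1 are the classical heavy chains, which are highly polymorphic among mouse strains, and the H2-T and H2-Q genes are nonclassical ones.

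The 6 libraries held 59651087 to 65576084 counts. Counts on the ribosomal RNA gene CT010467 and on Lars2, together called the ribosomal share here, were 4.38% to 7.94% of the mitochondria libraries and 1.74% to 3.56% of the control libraries. The groups do not overlap in this share, so it cannot be told apart from the treatment, and a fit with it as a covariate is given below. The 10 endothelial markers looked up all passed the filter, with a summed level of 1137 to 1204 FPKM (fragments scaled by exon length and by mapped fragments) in mitochondria libraries and 1198 to 1199.6 FPKM in control libraries. Of 10 osteocyte or osteoblast markers 8 were in the table and 0 reached the filter, with summed levels of 0.167 to 0.504 FPKM in mitochondria libraries and 0.267 to 0.440 FPKM in control libraries. Of 10 leukocyte markers 9 were in the table, and they summed to 51.2 to 62.6 FPKM in mitochondria libraries and 38.7 to 40.9 FPKM in control libraries. Most of that sum was the lysosomal protein gene Cd68, at 49.6, 57.9 and 52.8 FPKM in mitochondria libraries and 38.8, 36.7 and 38.4 FPKM in control libraries, whereas Ptprc, which defines leukocytes, held at most 10 counts in any library. Mural cell and fibroblast markers summed to 2.83 to 9.80 FPKM in mitochondria libraries and 4.42 to 7.11 FPKM in control libraries, and astrocyte markers to 0.238 to 0.377 FPKM in mitochondria libraries and 0.231 to 0.294 FPKM in control libraries. The part of these markers in the results was not tested. Mitochondria 2 stood apart in some of the listed genes of low level. The lysozyme gene Lyz2 had 246 counts there and 18 to 39 in the other 5 libraries. The class I gene H2-Q10 had 77 counts there and 0 to 7 elsewhere. How often a library stands apart in this way among all genes below the filter is not given here.

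No member passed the test for a difference between cells given mitochondria and control cells. In edgeR's quasi-likelihood test with Benjamini-Hochberg adjustment over all tested genes, 0 of the 9 tested members had an adjusted p under 0.05, against 2.09% of all genes (0.986% higher and 1.1% lower). In bulk RNA, fewer cells with a transcript and less of it per cell cannot be told apart. At an unadjusted p under 0.05 there were 6 members, against 16.1% of all genes, and all 6 were on the higher side, where 7.82% of all genes lay. DESeq2 called 1 member, H2-T22, against 5.3% of all genes. In limma with log2(FPKM + 1) 0 members passed, where only 39 of all 11255 genes did. Of the 9 members, 7 had a log2 fold change (mitochondria over control) above 0, against 50.4% of all genes, and the median was 0.22, against 0.00109 over all genes. For 4 members, H2-K1, H2-T22, Tap2 and Tapbp, every mitochondria library lay above every control library, as was the case for 1134 of all 11255 genes, and no member had the reverse. Ranges did not overlap, in either direction, for 21.1% of all genes.

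**Figure D1:**
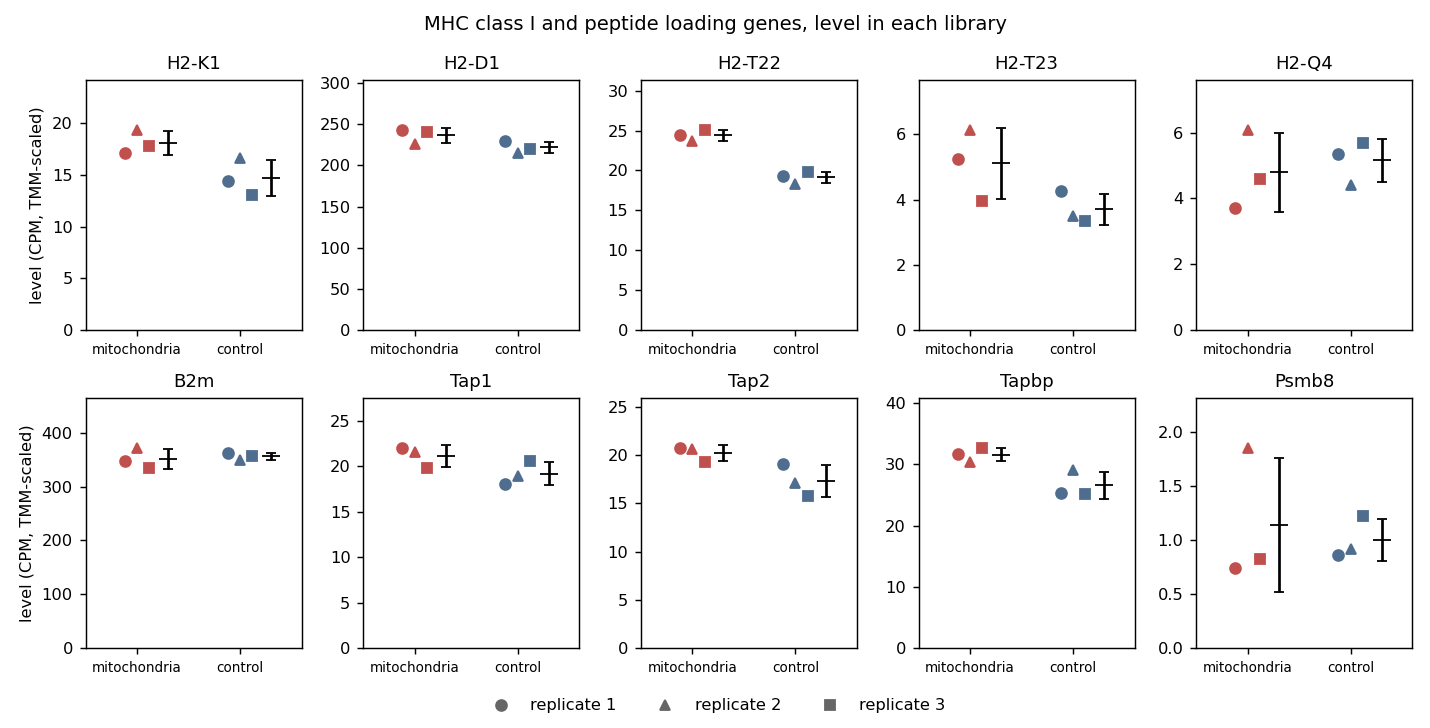
Level of each of the 10 genes in each library, in CPM (counts scaled to library size with edgeR's TMM factors) on a linear axis from 0. Symbols are the 3 libraries of a group, and the black bar is the mean ± SD; the groups are apart for H2-K1, H2-T22, Tap2 and Tapbp and overlap for the other 6 genes.

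Levels differed widely among the members. On the FPKM scale, which is per length, B2m was highest, at 350.4 ± 14.7 FPKM in mitochondria cells and 371 ± 2.96 FPKM in control cells (SD, n = 3 each), and 99.3% of tested genes had a lower control mean. H2-D1 came next, at 78.9 ± 4.71 FPKM in mitochondria cells and 77.1 ± 1.58 FPKM in control cells. All others lay below 8 FPKM. Tapbp averaged 7.47 ± 0.370 FPKM in mitochondria cells and 6.56 ± 0.647 FPKM in control cells, followed by H2-T22, H2-K1, Tap2 and Tap1. In control cells the ranges of H2-T22 and H2-K1 overlapped, as did those of H2-K1 and Tap2, so their order was not resolved there, while in mitochondria cells all 3 were apart. H2-Q4 and H2-T23 were apart in control cells and overlapped in mitochondria cells, at 1.58 ± 0.361 FPKM for H2-Q4 and 1.51 ± 0.312 FPKM for H2-T23. Psmb8 was lowest, at 0.189 to 0.455 FPKM over the 6 libraries. The FPKM of H2-D1 was 15.03 ± 1.48 times that of H2-K1 in mitochondria cells and 17.5 ± 2.32 times in control cells, a difference within the spread (two-sided exact permutation p = 0.3). Because the heavy chains vary in sequence between strains, a ratio between them also depends on how well reads of these cells match the reference allele, and this was not tested.

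Promoters of heavy chain genes and B2m are known to hold elements through which interferon and NF-kappaB signals act, and they are shown because regulators of these genes are described further on. Of the members 9 had a RefSeq promoter (GRCm38.p6, 250 bases before to 50 after the start). Tap2 had none. Letters were matched on both strands. H2-K1, H2-D1 and H2-Q4 each held GGGNNTTCC (NF-kappaB type; 5.82% of all 32851 promoters) followed by GAANTGAAA on the opposite strand, a form of the interferon response element added after the sequences were read (1.83% of all promoters). The longer core, GAAA, any 2 bases and GAAA again (3.44% of all promoters), was found in B2m, H2-T22 and H2-T23, on the opposite strand in the H2-T genes. TGACG, a core shared by the X2 box and the cAMP response element, was found in 6 of the 9, and in 20.8% of all promoters. In the sequences below, 5′ to 3′ on the strand of the gene, capitals mark these matches. The H2-D1 and H2-T22 stretches are shorter and leave out their TGACG. It lies at −101 to −97 in H2-D1 and −22 to −18 in H2-T22, counted from the RefSeq start. The H2-K1 (chr17:34000372-34000470, minus strand), H2-Q4 (chr17:35379432-35379560, plus strand), H2-T22 (chr17:36042912-36042945, minus strand) and B2m (chr2:122147536-122147625, plus strand) stretches lie before the first exon. The 30 bases of H2-D1 (chr17:35262923-35262952, plus strand) lie before the RefSeq start but inside the first exon of a GENCODE M21 transcript.
H2-K1: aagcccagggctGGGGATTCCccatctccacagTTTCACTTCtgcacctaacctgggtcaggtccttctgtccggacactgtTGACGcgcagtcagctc
H2-D1: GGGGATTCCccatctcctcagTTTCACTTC
H2-Q4: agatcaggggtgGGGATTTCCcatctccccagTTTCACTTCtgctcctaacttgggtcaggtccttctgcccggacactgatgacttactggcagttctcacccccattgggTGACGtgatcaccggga
H2-T22: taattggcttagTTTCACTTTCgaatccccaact
B2m: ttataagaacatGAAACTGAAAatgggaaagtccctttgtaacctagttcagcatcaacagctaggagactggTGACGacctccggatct
A match of letters describes the sequence and does not show that a factor binds there.

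Among the heavy chains, H2-T22 had the lowest p. It encodes a nonclassical heavy chain that binds no peptide and is recognised by some gamma delta T cells (ENSMUSG00000056116, GRCm38 chromosome 17: 36037128 to 36042705, minus strand). Its level was 24.4, 23.7 and 25.1 CPM in mitochondria libraries, against 19.3, 18.3 and 19.8 CPM in control libraries. The groups did not overlap, at 1233 to 1544 counts per library. The spread within a group was 2.91% in mitochondria and 3.75% in control cells, as coefficients of variation. Counting alone would give 2.71% if each count were 1 independent fragment, which was not tested. Lum and Mepe, genes near 0, held 0 or 4 counts in every library, so a count may not be a single fragment. Its log2 fold change of 0.35 (SE 0.09, 95% interval 0.17 to 0.54) missed the threshold, with an edgeR adjusted p of 0.0603. It overlaps the antisense gene A930015D03Rik, which also overlaps H2-T23 and had 16 to 23 counts in mitochondria libraries and 13 to 96 in control libraries. Its adjusted p was 0.00356 in DESeq2 and 0.0491 in edgeR when only genes with a mean of at least 5 FPKM were tested. The intervals given here are for single genes and are not adjusted for the number of genes.

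H2-K1, a classical heavy chain (ENSMUSG00000061232, chromosome 17: 33996017 to 34000347, minus strand), had 17.1, 19.4 and 17.8 CPM in mitochondria libraries, against 14.4, 16.6 and 13.1 CPM in control libraries. The groups did not overlap, but control 2 lay within 1 CPM of the lowest mitochondria library. The log2 fold change was 0.30 (SE 0.11, interval 0.05 to 0.54, edgeR adjusted p 0.216). H2-D1, the other classical heavy chain (ENSMUSG00000073411, chromosome 17: 35262730 to 35267499, plus strand), had 243, 226 and 241 CPM in mitochondria libraries, against 230 and 216 CPM in controls 1 and 2 and 221 CPM in control 3. Mitochondria 2 lay below control 1. The log2 fold change was 0.09 (SE 0.04, interval 0.00418 to 0.18, edgeR adjusted p 0.289), and it was −0.066 with TPM, where the median of all genes was −0.15. Although H2-D1 had the most counts of any heavy chain (12967 to 15393 per library), its estimated difference was the smallest of the 4 heavy chains above 0.

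H2-T23 encodes Qa-1, which presents leader peptides of other class I chains to the CD94/NKG2A receptor (ENSMUSG00000067212, chromosome 17: 36029773 to 36032855, minus strand). Its level was 5.23, 6.14 and 3.96 CPM in mitochondria libraries, against 4.25, 3.51 and 3.33 CPM in control libraries. It had the largest estimated log2 fold change of the members, 0.47 (SE 0.20, interval 0.03 to 0.91, adjusted p = 0.283 in edgeR), but mitochondria 3 lay below control 1 and the spread in mitochondria cells was 21.5%, against 13.1% in control cells. H2-Q4, a nonclassical heavy chain of the Q region (ENSMUSG00000035929, chromosome 17: 35379617 to 35385290, plus strand), had 3.72, 6.09 and 4.58 CPM in mitochondria libraries, against 5.36, 4.42 and 5.70 CPM in control libraries. The mitochondria libraries held both its highest and its lowest value. Its log2 fold change was −0.11 (SE 0.20, interval −0.55 to 0.34, edgeR adjusted p 0.853), and it was −0.31 without mitochondria 2 and 0.049 without mitochondria 1.

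B2m, the light chain that class I heavy chains need to reach the cell surface (ENSMUSG00000060802, chromosome 2: 122147686 to 122153083, plus strand), had 347, 371 and 335 CPM in mitochondria libraries, against 363 and 349 CPM in controls 1 and 2 and 356 CPM in control 3. The highest and the lowest of the 6 CPM values were both in mitochondria cells. Its log2 fold change was −0.02 (SE 0.04, interval −0.11 to 0.07, edgeR adjusted p 0.854), and 0.011 without mitochondria 3. In folds the interval runs from 0.927 to 1.05, and it holds for TMM scaling only. In FPKM all 3 mitochondria libraries (355, 363 and 334) lay below all 3 controls (374, 371 and 368). The log2 fold change was −0.083 in limma on log2(FPKM + 1), where the median of all genes was −0.05. With TPM it was −0.18 (SE 0.06), where the median of all genes was −0.15. The FPKM of B2m was 3.76 ± 0.282 times the summed FPKM of the 5 heavy chains in mitochondria cells and 4.15 ± 0.0459 times in control cells, with all 3 mitochondria libraries below all 3 controls (3.65, 4.08 and 3.55, against 4.09, 4.17 and 4.18; two-sided exact permutation p = 0.1, the smallest that 3 against 3 libraries allow). The gap between mitochondria 2 and the lowest control was small beside the spread of the mitochondria libraries.

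**Figure D2:**
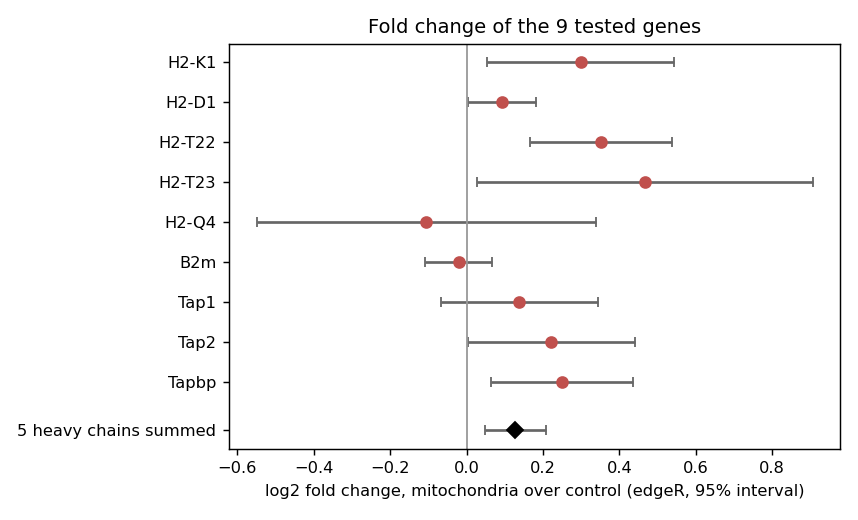
Log2 fold change, mitochondria over control, of the 9 tested genes (circles) and of the 5 heavy chain genes summed into 1 row (diamond), from edgeR with 95% intervals not adjusted for the number of genes. The intervals of H2-K1, H2-D1, H2-T22, H2-T23, Tap2, Tapbp and the sum lie above 0, and those of H2-Q4, B2m and Tap1 hold 0.

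Tapbp encodes tapasin, which edits the peptides that class I binds (ENSMUSG00000024308, chromosome 17: 33915899 to 33926197, plus strand). It had 31.7, 30.5 and 32.6 CPM in mitochondria libraries, against 25.4, 29.1 and 25.2 CPM in control libraries. The groups did not overlap, with control 2 nearest. The log2 fold change was 0.25 (SE 0.08, interval 0.07 to 0.44, edgeR adjusted p 0.177). In the table Tapbp overlaps Zbtb22 on the same strand, with 1293 to 1558 counts per library, and the antisense gene Gm19412, with 22 to 44 counts.

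Tap2 (ENSMUSG00000024339, chromosome 17: 34203527 to 34216321, plus strand) had 20.7, 20.7 and 19.2 CPM in mitochondria libraries, against 19.1, 17.1 and 15.8 CPM in control libraries. Mitochondria 3 and control 1 were nearly level, and the log2 fold change was 0.22 (SE 0.10, interval 0.00466 to 0.44, edgeR adjusted p 0.301). Its partner Tap1 (ENSMUSG00000037321, chromosome 17: 34187553 to 34197225, plus strand) had 21.96, 21.6 and 19.8 CPM in mitochondria libraries, against 18.1, 18.9 and 20.6 CPM in control libraries. The groups overlapped, and the log2 fold change was 0.14 (SE 0.09, interval −0.07 to 0.34, edgeR adjusted p 0.521; −0.018 with TPM). The ratio of Tap2 to Tap1 in FPKM was 1.39 ± 0.0224 in mitochondria cells and 1.32 ± 0.213 in control cells (exact permutation p = 0.7).

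Psmb8 encodes the catalytic subunit that takes the place of Psmb5 in the immunoproteasome (ENSMUSG00000024338, chromosome 17: 34197721 to 34201454, plus strand). It did not reach the filter and had 47, 106 and 49 counts in mitochondria libraries, against 56, 62 and 79 counts in control libraries. Mitochondria 2, the library with the Lyz2 and H2-Q10 counts given above, held the highest count, and the other 2 mitochondria libraries lay below every control. With no filter its log2 fold change was 0.19 (SE 0.43, interval −0.81 to 1.19, edgeR adjusted p 0.92).

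The class I heavy chains are near copies of each other, and how reads that match several of them were counted is not given in the sources used here. In GENCODE M21 the longest coding transcript of H2-T22 shared 44.7% of its stretches of 50 bases, and 14.2% of those of 100 bases, with a transcript of another gene, mostly H2-T10 (37.9% and 9.81%). The shares at 50 bases were 28.8% for H2-T23, 24.3% for H2-Q4, 14.3% for H2-D1 and 8.79% for H2-K1, and at 100 bases 7.28%, 2.66%, 4.64% and 0%. Some stretches of H2-Q4 and H2-T23 also occur in genes that are no class I genes. B2m and Psmb8 shared none, and Tap1 and Tap2 shared under 1% at 50 bases, only with each other. A count for H2-T22, H2-T23 or H2-Q4 is therefore less certain than one for B2m, Tap1 or Tap2. The gene H2-Q1, which shared the most stretches with H2-D1, was listed at 0, 0 and 177 counts in mitochondria libraries and at 207, 0 and 221 counts in control libraries, so both groups held libraries at 0 and libraries with 177 counts or more.

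**Figure D3:**
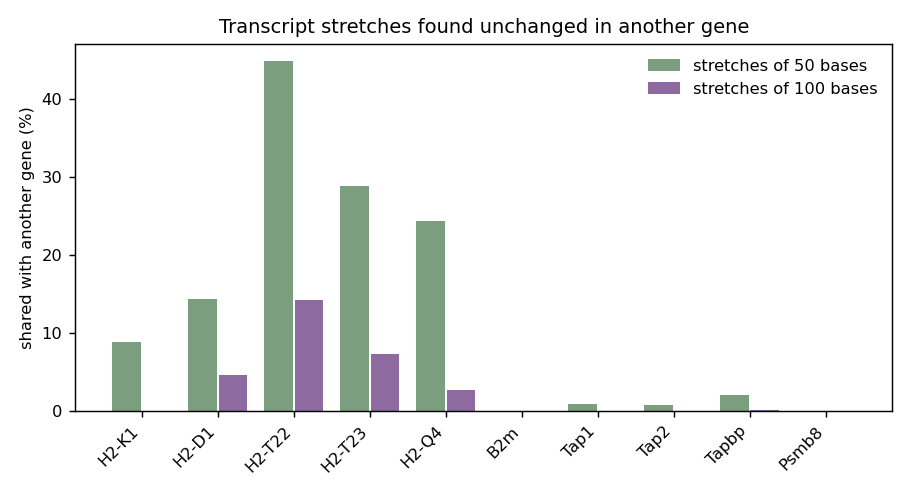
Share of all stretches of 50 and of 100 bases in the longest coding GENCODE M21 transcript of each gene that occur unchanged in a transcript of another gene, in percent. H2-T22 shares most, at 44.7% and 14.2%, and B2m and Psmb8 share none.

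Sums over the heavy chains do not depend on how reads were divided among the genes summed. The 5 heavy chain members together had 294, 282 and 292 CPM in mitochondria libraries, against 273, 259 and 262 CPM in control libraries, a ratio of means of 1.09 (two-sided exact permutation p = 0.1, the smallest possible). Fitted as 1 row in edgeR, the sum had a log2 fold change of 0.13 (SE 0.04, interval 0.05 to 0.21, adjusted p = 0.105). Over all 21 named heavy chain genes of the table the values were 310.4, 306 and 313 CPM in mitochondria libraries, against 293, 279.5 and 284 CPM in control libraries, a ratio of 1.09 (exact permutation p = 0.1). The groups did not overlap in either sum. They did overlap for the 5 members with scaling by library totals (log2 ratio 0.081, exact permutation p = 0.2), and with summed FPKM both for the 5 members (0.062, exact permutation p = 0.3) and for all 21 genes (0.048, exact permutation p = 0.3). H2-D1 made up 81.9 ± 1.31% of the counts of the 5 members in mitochondria cells and 83.9 ± 0.383% in control cells. The other 4 together had 50.5, 55.3 and 51.5 CPM in mitochondria libraries, against 43.3, 42.9 and 41.9 CPM in control libraries, a ratio of 1.23 (exact permutation p = 0.1). This sum was not planned. It leaves out H2-D1, the heavy chain above 0 with the smallest estimate, and still depends on how reads were divided between H2-D1 and the others. H2-T22 counted together with H2-T10, Gm11127 and Gm7030, chosen after seeing the data, had 25.2, 25.8 and 26.1 CPM in mitochondria libraries, against 20.6, 19.3 and 20.5 CPM in control libraries (exact permutation p = 0.1). H2-D1 together with H2-Q1, also not planned, had 243, 226 and 244 CPM in mitochondria libraries, against 233, 216 and 224 CPM in control libraries, which overlapped (exact permutation p = 0.2).

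**Figure D4:**
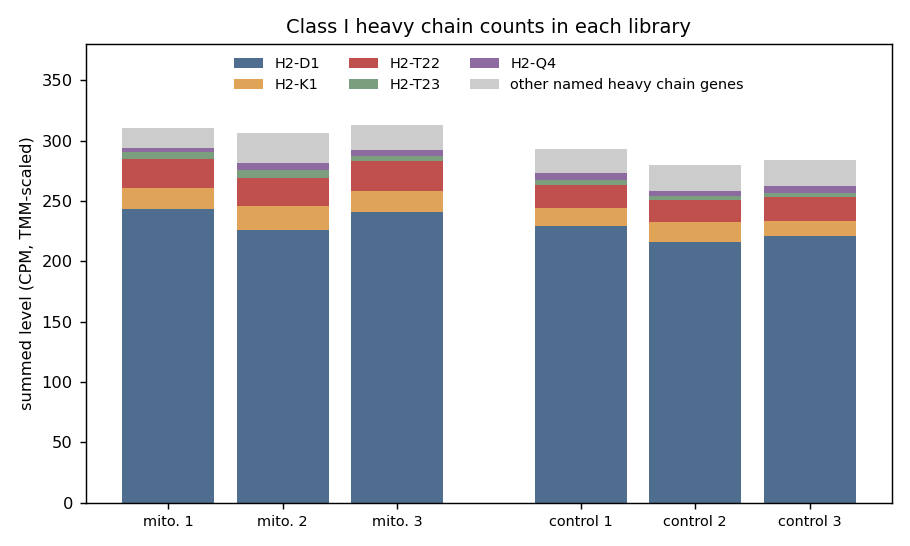
Summed level of the class I heavy chain genes in each library, in CPM scaled with TMM factors, with the 5 members in colour and the other named heavy chain genes in grey. The mitochondria libraries reach 306 to 313 CPM and the control libraries 279.5 to 293 CPM, and H2-D1 makes up most of every bar.

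Of the other class I heavy chains and class I-like genes, 19 of 26 listed were in the table and 6 reached the filter. In edgeR, DESeq2 and limma 0 passed, against 2.09% of all genes in edgeR and 5.3% in DESeq2. An unadjusted edgeR p under 0.05 was found for 0, against 16.1% of all genes. All 6 had log2 fold changes above 0, against 50.4% of all genes, and the median was 0.21. Hfe, which controls iron uptake, was at 0.25 (SE 0.16), Mr1, which presents microbial vitamin B metabolites, at 0.18 (SE 0.12), Cd1d1, which presents lipids, at 0.25 (SE 0.20), and Fcgrt, the neonatal Fc receptor, at 0.24 (SE 0.21; adjusted p = 0.469 to 0.635 for the 4 in edgeR). H2-M3, known for presenting N-formyl peptides of bacterial and mitochondrial origin, is named outside the rule and after its values were seen. It had 11.9, 16.1 and 13.3 CPM in mitochondria libraries, against 11.7, 15.5 and 13.5 CPM in control libraries (0.02 on the log2 scale, SE 0.14, edgeR adjusted p 0.97), and the 2 groups covered nearly the same range. The 13 genes below the filter included H2-Q7 and H2-T10 and were at most 1.06 FPKM in any library.

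Most other genes of peptide loading and trimming also serve other proteins of the endoplasmic reticulum or cytosol. Of 10 tested, 0 passed in edgeR, DESeq2 or limma, against 2.09% of all genes in edgeR and 5.3% in DESeq2. An unadjusted edgeR p under 0.05 was found for 0, against 16.1% of all genes. Of the log2 fold changes 1 (Calr) was above 0, against 50.4% of all genes, and their median was −0.05. The chaperone Calr, which is part of the loading complex, had 575, 579 and 546 CPM in mitochondria libraries, against 553, 542 and 535 CPM in control libraries (log2 fold change 0.06, SE 0.03). The aminopeptidase Lnpep was at −0.09 (SE 0.05), the chaperone Hspa5 at −0.06 (SE 0.03) and the peptidase Ide at −0.06 (SE 0.05). Erap1, which trims peptides in the endoplasmic reticulum and is named outside the rule, was at −0.10 (SE 0.10). All 3 mitochondria libraries lay below the controls, while ranges did not overlap, in either direction, for 21.1% of all genes.

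Among proteasome genes 9 of 10 were tested. In edgeR, DESeq2 or limma 0 passed, against 2.09% of all genes in edgeR and 5.3% in DESeq2. An unadjusted edgeR p under 0.05 was found for 1, against 16.1% of all genes. Log2 fold changes were above 0 for 7, against 50.4% of all genes, with a median of 0.06. Psme4, which encodes the proteasome activator PA200, had 93.7, 91.9 and 85.8 CPM in mitochondria libraries, against 79.4, 82.5 and 82.6 CPM in control libraries (0.15 on the log2 scale, SE 0.05, edgeR adjusted p 0.138). Psme2, a subunit of the interferon-inducible activator PA28, had 42.0, 18.3 and 37.2 CPM in mitochondria libraries, against 25.5, 13.9 and 27.9 CPM in control libraries. Replicate 2 was lowest in both groups, and the log2 fold change was 0.54 (SE 0.28; edgeR adjusted p 0.389). It was 0.82 without mitochondria 2, 0.31 without mitochondria 1 and 0.28 without control 2, and did not pass in any of these. With replicate number as a block in edgeR, Psme2 passed (0.51, SE 0.10, adjusted p 0.0214). Psmb6, which Psmb9 replaces in the immunoproteasome, was at 0.08 (SE 0.05), and the assembly factor Pomp at 0.05 (SE 0.05). Psmb10, the immunoproteasome form of Psmb7, had 13.0, 11.01 and 9.40 CPM in mitochondria libraries, against 11.1, 8.04 and 10.7 CPM in control libraries (0.16 on the log2 scale, SE 0.16, edgeR adjusted p 0.684). Psmb9 lay below the filter with 41, 26 and 3 counts in mitochondria libraries, against 9, 17 and 8 counts in control libraries. It overlaps Tap1 on the opposite strand in the table, and whether counting used strand is not given in the sources used here. Of the immunoproteasome subunits, Psmb8 and Psmb9 were at most 0.455 FPKM in any library, while Psmb10 reached 4.28 to 6.65 FPKM.

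Among regulators of class I genes, 1 of 25 tested genes rose, against 0.986% of all genes, 0 fell and 24 did not pass. An unadjusted edgeR p under 0.05 was found for 4 of the 25, against 16.1% of all genes. Of the 25, 18 had a log2 fold change above 0, against 50.4% of all genes, and the median was 0.04. The gene that rose was Ifngr2, the signalling chain of the interferon gamma receptor, at 43.0, 41.4 and 43.3 CPM in mitochondria libraries, against 34.3, 36.2 and 35.5 CPM in control libraries (0.27 on the log2 scale, SE 0.06, edgeR adjusted p 0.0415). This call was lost in each of the 6 fits that left out a library, with adjusted p-values of 0.0642 to 0.155 in edgeR, and with limma on log2(FPKM + 1) (adjusted p = 0.151), while DESeq2 made it (adjusted p = 0.00353). Stat2, which carries interferon alpha and beta signals, had 22.4, 23.1 and 25.0 CPM in mitochondria libraries, against 19.9, 19.0 and 19.9 CPM in control libraries (0.26 on the log2 scale, SE 0.09, edgeR adjusted p 0.17). The interferon regulatory factor Irf7 was at 0.36 (SE 0.16, adjusted p = 0.309) and Irf1, which binds the interferon response element, at 0.30 (SE 0.17, adjusted p = 0.415). Ifngr1, the other chain of the receptor, is named outside the rule and was at −0.02 (SE 0.08). Nlrc5, the class I transactivator, lay far below the filter, with 16, 21 and 13 counts in mitochondria libraries, against 33, 47 and 27 counts in control libraries. Every mitochondria library lay below every control, and with no filter its log2 fold change was −0.95 (SE 0.51; edgeR adjusted p 0.585).

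**Figure D5:**
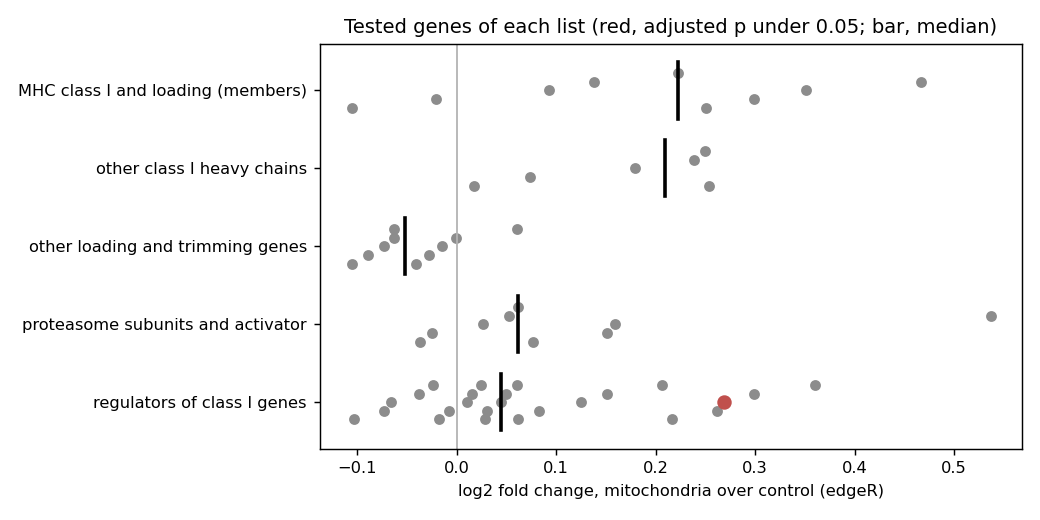
Log2 fold change, mitochondria over control, of every tested gene in the member list and in 4 lists of related genes (edgeR; points are spread vertically only to be seen). Black bars are the medians, 0.22 for the members and −0.05 for other loading and trimming genes, and Ifngr2, in red, is the gene with an adjusted p under 0.05.

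None of 11 class II genes and regulators reached the filter. The class II transactivator Ciita and the class II chains H2-Aa, H2-Ab1 and H2-Eb1 are part of that list, and the highest value of any of the 11 in any library was 0.828 FPKM, for Cd74, the class II invariant chain, in mitochondria 2.

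With the ribosomal share as a covariate, the median log2 fold change of the members was 0.19, against 0.22 without it, and H2-T22 was at 0.30 (SE 0.15), H2-K1 at 0.40 (SE 0.21), Tapbp at 0.43 (SE 0.14) and H2-Q4 at −0.72 (SE 0.31). H2-T23, the member with the largest estimate without it, was at 0.29 (SE 0.36), and B2m was at −0.09 (SE 0.07). H2-D1 was at 0.09 (SE 0.08), Tap1 at 0.17 (SE 0.17) and Tap2 at 0.19 (SE 0.18). No member was called in that fit, in which 3 of all genes were. With TPM, where the median of all genes was −0.15, the median of the members was 0.063.

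The mean profile of the 9 tested members, as log2 CPM relative to each gene's own mean, was 0.07, 0.18 and 0.04 in mitochondria libraries, against −0.06, −0.11 and −0.12 in control libraries. Mitochondria 2 was the highest. The 5 other genes with the most similar profile over the 6 libraries, by root mean square difference, were Ddx41 (0.0223), Zfp65 (0.0249), Rbfa (0.0272), Adprh (0.0277) and Slc20a1 (0.0315), and of these Slc20a1, a phosphate transporter gene, was called (0.18 on the log2 scale, SE 0.03, edgeR adjusted p 0.0176). The profiles are over the same 6 libraries, whose group and ribosomal share go together, so the likeness is a description.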

How the data were processed

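Messenger RNA of 3 mitochondria and 3 control libraries was analysed, grouped by the treatment label. The deposited table gives raw counts and FPKM per gene, per the file headers. Per the submitters' processing notes, GRCm38 was the build, and edgeR, DESeq2, StringTie 2.1.6, HISAT2 2.2.1 and cutadapt 1.9 were used. What each did, whether strand was used and how shared reads were treated is not given in these sources.

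Genes that reached 1 FPKM in 3 or more of the 6 libraries were tested with edgeR 4.0.16 (R 4.3.3; TMM, glmQLFit and glmQLFTest, group as the only term, two-sided), and called at a Benjamini-Hochberg adjusted p under 0.05. SE was taken as the size of the log2 fold change divided by the root of F. The other settings were DESeq2 1.42.0, limma 3.58.1 on log2(FPKM + 1), log2(FPKM + 0.1) and log2(TPM + 1) with TPM computed from the FPKM, median-of-ratios or total scaling, no filter, genes averaging 5 FPKM or more, the replicate block, a ribosomal covariate, summed heavy chains, and each library left out. On counts simulated from these libraries (11255 genes), the share of changed genes that edgeR found was 42% for 1.2-fold, 70% for 1.5-fold, 94% for 2-fold and 100% for 4-fold changes, and 7.27% of its calls were false. Sums were compared with exact permutation tests. Shared stretches came from GENCODE M21 transcripts and promoters from RefSeq. Protein sequences were not used here.

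The members and lists were chosen with earlier results of these data known. By rule, the text names all members, up to 4 genes of lowest p and every called gene per list, the 5 most similar genes, and Nlrc5, Irf1, Psmb9 and Psmb10. Exceptions are marked, and 1 gene that the rule names is not reported here.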

Additional observations from a re-analysis of the deposited data

Results flagged for a closer look

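A gene below the filter was taken up here where 1 mitochondria library held at least 20 counts and more than 3 times the highest control. The rule did not look for high control libraries. Both genes named here belong to the lists used above, and the share of all genes that would meet the rule is not given. H2-Q10, a class I heavy chain gene of the Q region, had 77 counts in mitochondria 2, at most 5 in the other mitochondria libraries and at most 7 in any control. Lyz2, the lysozyme gene of the leukocyte markers, had 246 counts in mitochondria 2, at most 30 in the other mitochondria libraries and at most 39 in any control. The groups of 3 libraries are too small for a test of outlying values.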

How the results depend on the processing

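Of 143 member values under 17 other settings, 137 kept their direction and side of the threshold. H2-T22 was called with DESeq2 and with a mean FPKM of at least 5, so 1 member was called in each, against 0. The latter setting tested only 4 members, and it called 248 of the 6940 genes left by that cutoff. In 4 cases the sign turned: with TPM for H2-D1 (−0.066) and Tap1 (−0.018), without mitochondria 1 for H2-Q4 (0.049) and without mitochondria 3 for B2m (0.011). The cause was not tested. With 1 library left out, H2-Q4 ranged from −0.31 to 0.049 and B2m from −0.062 to 0.011. With 1 library left out, the number of members called was 0 in all 6 fits and the members' median ranged from 0.19 to 0.23. That median was 0.13 in limma on log2(FPKM + 1), 0.16 with a pseudocount of 0.1 and 0.063 with TPM, where the median of all genes was −0.05, −0.06 and −0.15. The log2 ratio of summed heavy chains was above 0 in the settings run, at 0.06 to 0.15 for the 5 members and 0.05 to 0.14 for all named genes, and the groups overlapped with summed FPKM and, for the 5 members, with library totals.

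Of the regulators, 1 was called at first and 0 in the 3 limma fits, with library totals, with no filter, with the ribosomal covariate and in all 6 fits without a library. All genes called numbered 235 in edgeR, 597 in DESeq2, 39 in limma on log2(FPKM + 1), 36 with a pseudocount of 0.1, 328 with TPM, 353 with library totals (61 higher), 22 with no filter, 3 with the covariate and 68 to 233 without a library. Whether replicate numbers pair the samples was not settled. Same-numbered libraries deviated with correlations of 0.0606 to 0.0898. Those with different numbers ranged from −0.183 (mitochondria 1 and control 2) to 0.121 (mitochondria 1 and control 3). With the replicate block 394 genes were called, members called stayed at 0, and 1 proteasome gene was called, Psme2 (0.51, SE 0.10, adjusted p = 0.0214 in edgeR). Psmb8, Psmb9 and Nlrc5 had 3 to 106 counts per library and were fitted only with no filter.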
